A study of Mus musculus with 4 samples.

Results

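Marker-high hormone-poor cells are sorted reporter cells that held little endocrine RNA and much RNA of goblet and Paneth genes. They were 85 of the 290 cells in the counts table, or 29.3%. A cell was included when it had fewer than 5 counts of Neurog3, less than 2000 CPM of Chgb, and none of Cck, Gip, Gcg, Ghrl, Sst, Nts and Pyy at 1000 CPM or more. CPM is the gene's counts per 1000000 counts of the same cell, with no correction for gene length. The cell also needed at least 2000 CPM in the sum of 10 secretory genes, namely Agr2, Spink4, Muc2, Tff3, Fcgbp, Lyz1, Defa17, Defa24, Itln1 and Guca2a. The cells were thus chosen by the measured values of these 19 genes, which are given as a description and were not tested.

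The cells came from enteroids of female CD1 mice heterozygous for the Neurog3eYFP reporter allele. Enteroids are small-intestinal epithelium cultured as mini-guts in Matrigel domes. All plates shared this genotype and the R-spondin-1, EGF and Noggin medium, and living eYFP+ cells were sorted at 1 cell per well. Plates 1, 2 and 3 held duodenum cells and plate 4 jejunum cells. The mouse was 39 weeks old for plate 1 and 12 weeks old for plates 2, 3 and 4, so age and plate, and jejunum and plate, cannot be told apart. The reporter marks cells in which the Neurog3 locus is or was active, and a stable fluorescent protein can outlast the transcript. No group lacked the reporter.

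Goblet cells secrete the mucus of the gut, built on the Muc2 mucin together with Tff3 and Fcgbp. Paneth cells sit at the crypt base and secrete antimicrobial proteins such as lysozyme (Lyz1) and alpha-defensins (the Defa genes). Both arise from secretory progenitors that also give rise to the Neurog3-dependent endocrine cells.

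The 4 plates held 63 to 83 cells each, and single marker-high hormone-poor cells had 206726 to 1912118 counts. Their median depth per plate was 308694, 403125, 633052 and 636104 counts in plates 1 to 4, against 328020, 439779, 417485 and 713970 in the other cells. With every cell thinned to 100000 counts, a median of 2837, 2943, 3307 and 3089 genes was detected in the marker-high hormone-poor cells, against 2956.5, 3358.5, 3115 and 3622 in the other cells. Well names were shared between plates by design (88 of 92 names occurred in more than 1 plate), and cells are told apart by plate and well. Each plate is 1 pool of sorted cells. The p-values measure how the difference between the compared groups within a plate varied from plate to plate, a spread that may be technical.

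The genes of the secretory sum lie on several chromosomes (GRCm38, GENCODE M21), and each is protein-coding. Tff3 lies at chr17:31125306-31129646 on the minus strand. Fcgbp (chr7:28071236-28120862, plus strand) and Muc2 (chr7:141690340-141754693, plus strand) share a chromosome, as do Spink4 (chr4:40920052-40931395, plus strand) and Guca2a (chr4:119637704-119639471, plus strand). Defa17 (chr8:21655780-21656735) and Defa24 (chr8:21734494-21735471) are members of the alpha-defensin cluster, whose near-identical copies can share reads. A RefSeq promoter, running from 250 bases before to 50 bases after the start, was found for 6 of the 10 genes, namely Agr2, Muc2, Fcgbp, Lyz1, Itln1 and Guca2a. The E-box CAGCTG, a motif type read by basic helix-loop-helix factors such as Neurog3, was searched on both strands, which read alike. It was present in 4 of these 6 promoters (Fcgbp, Guca2a, Lyz1 and Muc2) and in 16.3% of all 32851 promoters. Another 3 motifs were searched on both strands, none of them overlapping the E-box letters. TATAAA was in the Muc2 promoter and in 13.6% of all promoters, TGTTTAC was in the Guca2a promoter and in 3.65% of all, and CTTTGAT was in 0 of the 6 and in 3.73% of all. A match is a description of letters and not of a site in use. The windows of 80 bases around the E-box (capitals) of Fcgbp, Guca2a and Muc2 are shown as examples, and that of Lyz1 is not shown. Over the 85 cells, Spearman's rho was 0.44 for Fcgbp and Muc2, 0.46 for Muc2 and Guca2a and 0.38 for Fcgbp and Guca2a. Lyz1 had 0.04 with Muc2, 0.22 with Fcgbp and 0.26 with Guca2a. Agr2 and Itln1, whose promoters lacked the E-box, had 0.51 with each other. In sparse counts from shared plates these values are a description only, and no link to the motif was tested. The windows are from GRCm38.p6, all on the plus strand, at chr7:28070991-28071070, chr4:119637489-119637568 and chr7:141690191-141690270. The motif lies 208, 206 and 112 bases before the start of the RefSeq promoter, which for Guca2a is not the gene start given above.
Fcgbp: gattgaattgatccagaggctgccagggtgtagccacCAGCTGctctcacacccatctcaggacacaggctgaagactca
Guca2a: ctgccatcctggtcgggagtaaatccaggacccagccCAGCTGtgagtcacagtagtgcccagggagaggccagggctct
Muc2: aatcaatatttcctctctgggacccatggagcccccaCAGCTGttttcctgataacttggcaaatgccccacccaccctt

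The marker-high hormone-poor cells were most frequent in plate 1. They made up 36 of 72 cells (50.0%, exact 95% interval 38.0% to 62.0%) in plate 1, 23 of 83 (27.7%, 18.4% to 38.6%) in plate 2, 17 of 72 (23.6%, 14.4% to 35.1%) in plate 3 and 9 of 63 (14.3%, 6.75% to 25.4%) in plate 4. The interval of plate 1 does not overlap those of plates 3 and 4, and it overlaps that of plate 2 at its edge. These Clopper-Pearson intervals cover counting error only. Of the 96 cells that met the Neurog3, Chgb and hormone criteria, 88.5% also met the secretory criterion. The 11 cells below it were 3, 0, 7 and 1 in plates 1 to 4.

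**Figure D1:**
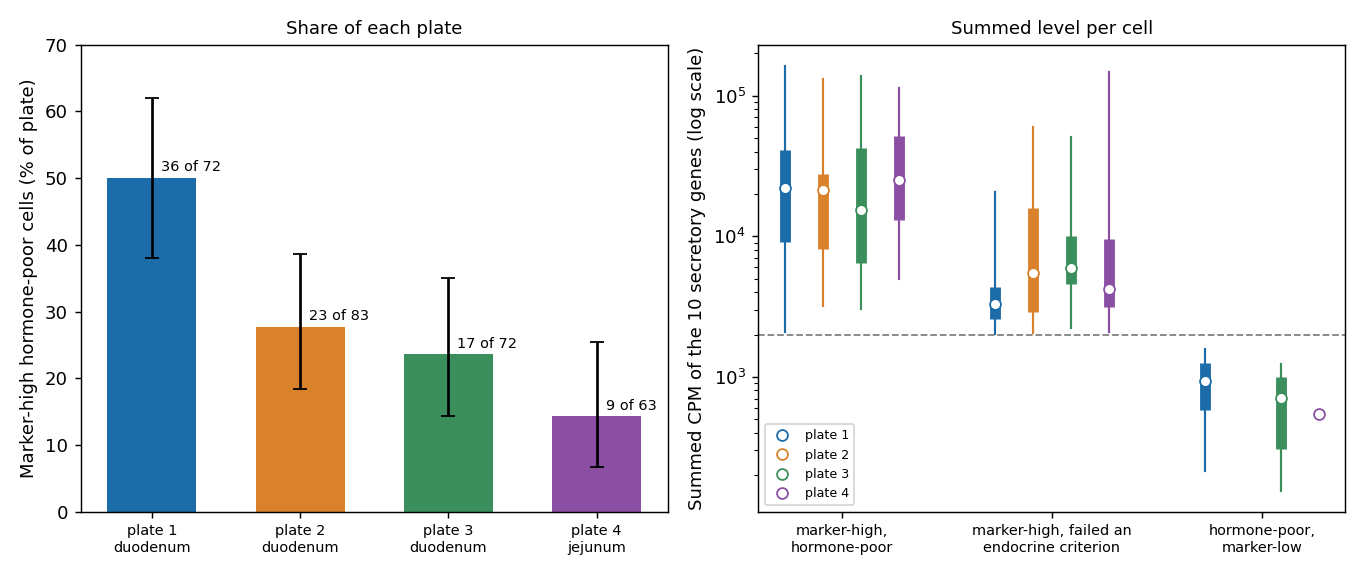
Left, the percentage of each plate's cells that were marker-high and hormone-poor, with exact 95% intervals. Right, the summed CPM of the 10 secretory genes per cell on a log scale, by class and plate, with the median (circle), the quartiles (thick line), the range (thin line) and the 2000 CPM limit (dashed). The share was 50.0% in plate 1 and 14.3% in plate 4, and the median sum of the marker-high hormone-poor cells lay between 15298 and 25108.6 CPM in every plate.

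High secretory sums also occurred in cells with endocrine RNA. In all, 156 cells reached 2000 CPM, and 71 of them failed an endocrine criterion, with 10, 24, 21 and 16 in plates 1 to 4. Neurog3 failed 23 of these cells, Chgb 37 and a hormone gene 31, and a cell could fail more than 1 criterion. Their median sum was 4870 CPM, against 21398 CPM in the marker-high hormone-poor cells. The marker-high hormone-poor cells ranged from 2072 to 162715 CPM. The 3 cells just inside the limit had 2072, 2782 and 3046 CPM, and the 3 hormone-poor cells just outside it had 1582, 1237 and 1182 CPM.

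The 10 genes took very unequal parts in the sum. Tff3, a trefoil peptide of goblet mucus, gave the most counts of the 10 genes in 63 of the 85 cells (74.1%), and over 50% of the sum in 50 cells. Defa24 gave the most in 9 cells, Itln1 in 5 (all in plate 1), Spink4 in 4, Fcgbp in 3 and Lyz1 in 1. In 22 cells the sum reached 2000 CPM only with Tff3, with 4, 10, 6 and 2 such cells in plates 1 to 4.

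The label of goblet and Paneth marker-high cells held for only some of these cells. The 6 markers named for it were Agr2, Spink4, Lyz1, Defa24, Itln1 and Guca2a. In 29 cells none of the 6 reached 1000 CPM, in 25 at least 3 did, and in 2 all 6 did. Tff3 is not among the 6, and the cells are therefore described here by the rule and by their leading genes rather than as a goblet or Paneth cell type.

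**Figure D2:**
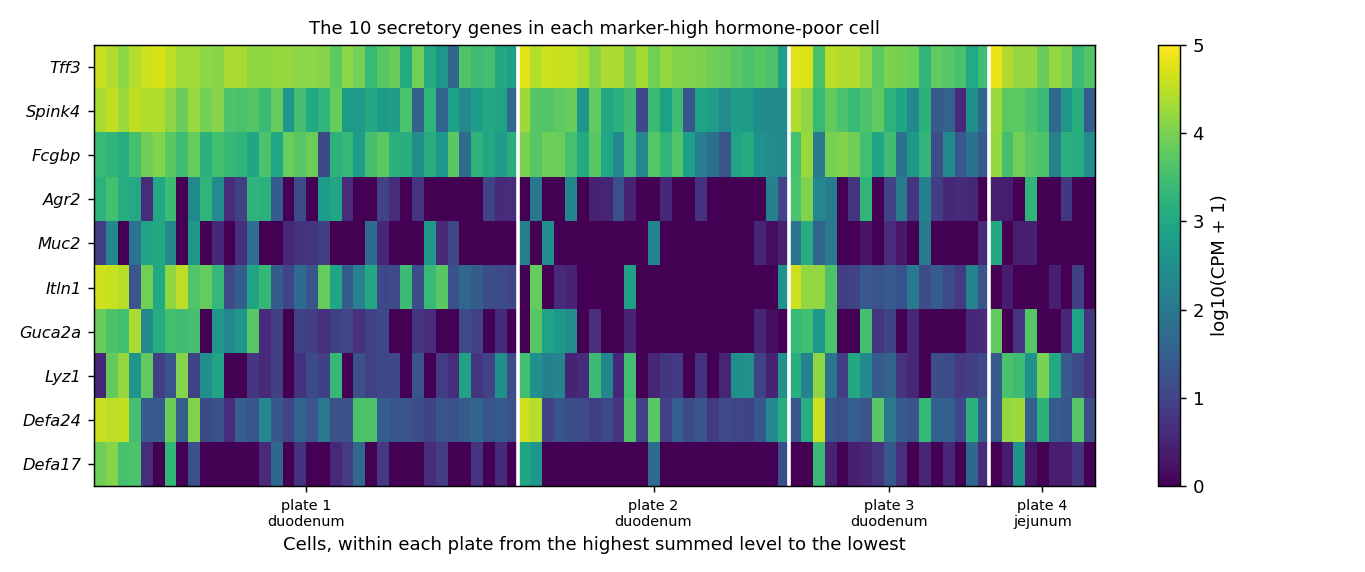
Each column is 1 of the 85 marker-high hormone-poor cells, ordered within its plate by summed level, and each row is 1 of the 10 secretory genes as log10(CPM + 1). Tff3, Spink4, Fcgbp and Defa24 are detected in every cell, whereas Agr2, Muc2, Itln1, Guca2a, Lyz1 and Defa17 are at 0 in many cells and high in a few.

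A group of 3 mucus-related genes were broadly high. Tff3 had a median of 13400, 11465, 7958 and 15413 CPM in the marker-high hormone-poor cells of plates 1 to 4, and of 611, 753, 439 and 255 CPM in the other cells. It reached 1000 CPM in 81 of the 85 cells and in 62 of the 205 other cells, so its ranges overlapped in every plate. Spink4, a Kazal-type protease inhibitor of goblet cells, had medians of 2976, 810, 1734 and 2530 CPM, against 44.1, 54.1, 44.6 and 75.8 CPM. Fcgbp, an IgG Fc-binding protein of the mucus layer, had medians of 1850, 1140, 919 and 3417 CPM, against 36.6, 60.1, 28.2 and 21.6 CPM. Tff3 and Fcgbp were both at 1000 CPM or more in 52 cells, and Spink4 with them in 43.

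The mucin gene and its folding enzyme did not share this breadth. Muc2, the main gel-forming mucin of the intestine, reached 1000 CPM in 3 of the 85 cells and was at 0 counts in 48. Its summed level was 113, 23.6, 117 and 121 CPM in plates 1 to 4, against 0.73, 9.15, 8.56 and 2.91 CPM in the other cells. One cell gave 99.6% of the Muc2 counts of plate 4, and one gave 78.4% of those of plate 3. Agr2, a disulfide isomerase that helps mucins fold, reached 1000 CPM in 9, 0, 3 and 1 cells of plates 1 to 4 and was at 0 in 32 cells. Its largest value was 10734 CPM, in plate 3. Its summed level was 590, 40.5, 1313 and 374 CPM against 12.5, 128, 37.3 and 18.1 CPM in the other cells, so it was lower in plate 2.

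The lectin Itln1 and the guanylin gene Guca2a were high in single cells of some plates. Itln1, an intelectin that binds microbial glycans, reached 1000 CPM in 16 of 36 cells of plate 1, 1 of 23 of plate 2, 4 of 17 of plate 3 and 0 of 9 of plate 4, where 9 cells allow a share of up to 33.3%. Its largest values were 42767, 6588, 41951 and 7.90 CPM in the 4 plates. Of the 205 other cells, 1 reached 1000 CPM of Itln1, and it was in plate 4. The summed level of Itln1 in that plate was 0.90 CPM, against 52.3 CPM in the other cells. Guca2a, whose peptide activates guanylate cyclase C, reached 1000 CPM in 9, 1, 4 and 2 cells of plates 1 to 4, with maxima of 23534, 4985, 3774 and 6232 CPM. Guca2a and Agr2 were both at 1000 CPM or more in 11 cells, 0 of them in plate 2.

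The Paneth genes of the rule were high in 29 cells. In these cells Lyz1, Defa17 and Defa24 summed to 1000 CPM or more, with 11, 6, 7 and 5 cells in plates 1 to 4. The limit falls in a continuous range, since 8 cells lay between 500 and 2000 CPM. Lyz1, which encodes lysozyme, reached 1000 CPM in 15 cells and in 15 of the 205 other cells. Defa24 reached it in 22 cells and in 8 other cells, and Defa17 in 6 cells, all of which were also high in Defa24. Defa17 also reached it in 1 other cell, in plate 4, where its summed level was 46.6 CPM against 137 CPM in the other cells. Lysozyme and Defa24 were often not high together: 8 cells had both, 7 had Lyz1 without Defa24 and 14 had Defa24 without Lyz1.

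High Paneth genes and high goblet genes occurred in the same cells. Tff3 reached 1000 CPM in 28 of the 29 cells and in 53 of the other 56, so it did not set the 29 apart. Spink4 reached it in 25 of the 29 and 26 of the 56, and both are genes that chose the cells. In well H07 of plate 1, Spink4 stood at 32956 CPM, Tff3 at 25853, Itln1 at 38017, Defa24 at 31371, Defa17 at 11717 and Lyz1 at 6385 CPM. In well B04 of plate 3, Defa24 stood at 44333, Lyz1 at 13847 and Itln1 at 15713 CPM beside 3702 CPM of Tff3. In well E10 of plate 4, Tff3 stood at 72055 CPM, Spink4 at 17759 and Fcgbp at 16103 beside 26.3 CPM of Lyz1 and 24.7 CPM of Defa24. Over the 85 cells, Spearman's rho was 0.66 for Spink4 and Fcgbp, 0.64 for Spink4 and Tff3 and 0.65 for Defa17 and Defa24, and 0.02 for Tff3 and Defa24. The last varied between plates, at 0.36, -0.04, -0.37 and 0.17 in plates 1 to 4, and all are genes whose sum chose the cells. One cell was sorted per well and no doublet caller was run, so wells with more than 1 cell were not tested for.

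**Figure D3:**
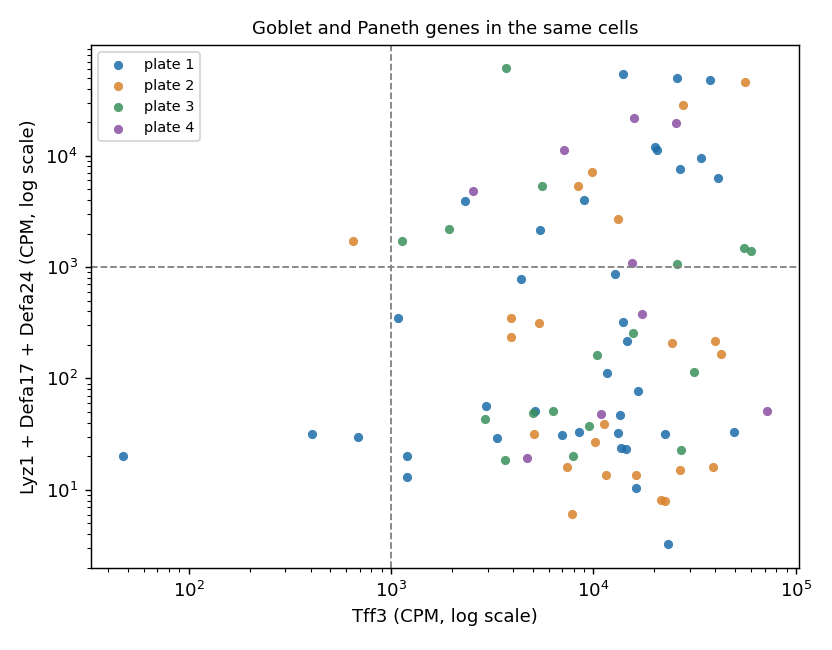
Each point is 1 of the 85 cells, coloured by plate, with Tff3 on the x axis and the sum of Lyz1, Defa17 and Defa24 on the y axis, both in CPM on log scales. Dashed lines mark 1000 CPM. Of the 29 cells above the horizontal line, 28 lie to the right of the vertical line, as do 53 of the other 56.

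Genes outside the rule were set beside this division, as a description with no test, in the 29 cells high in Lyz1, Defa17 and Defa24 and in the other 56. Other Defa genes summed to over 100 CPM in 10 of the 29 and in 0 of the 56 (a share of up to 5.36%), and Defa30 alone did so in 10 and 0, with reads that near-identical copies can share. Reg4, a C-type lectin of the Reg family, exceeded 100 CPM in 21 of 29 and 19 of 56, but in plate 4 its median was 271 CPM in the 5 cells and 606 CPM in the other 4. Clps, which encodes the lipase cofactor colipase, had a median of 3348 CPM in the 29 cells and 1108 CPM in the 56. Klk1, a kallikrein protease, had medians of 1496 and 153 CPM. Some other listed genes did not follow the split. Hepacam2 had medians of 345 and 376 CPM, and Ephb3, a crypt-base Eph receptor, 33.5 and 96.9 CPM. By plate, Ephb3 had medians of 45.5, 739, 5.12 and 20.4 CPM in the 29 cells. The 56 cells had 454, 69.3, 26.6 and 24.0 CPM, so plate 2 ran the other way. Ttr, which encodes transthyretin, exceeded 100 CPM in 7 of 29 and 16 of 56 cells.

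Goblet and Paneth transcription factor genes were detected unevenly. Spdef, a goblet maturation factor, exceeded 100 CPM in 2 of the 29 cells and 3 of the 56. Sox9, a crypt and Paneth factor, did so in 12 of 29 and 18 of 56, and Foxa3, a secretory-cell forkhead factor, in 9 of 29 and 22 of 56. Summed levels of Sox9 were 155, 60.3, 39.7 and 148 CPM in plates 1 to 4, against 139, 110, 127 and 79.0 CPM in the other cells. Those of Foxa3 were 182, 75.7, 40.6 and 74.2 against 150, 98.7, 84.5 and 49.8 CPM, so both were lower in plates 2 and 3. Spdef had 49.9, 11.8, 13.9 and 0 against 0.41, 0.15, 2.25 and 0.049 CPM.

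Traces of endocrine RNA remained. Chgb, a granin of hormone granules, was present in each of the 85 cells at 95.8 to 1647 CPM, against medians of 9804 to 60711 CPM in the other cells of the 4 plates. Neurog3 had 0 counts in 65 of the 85 cells. Chga, a granin that the rule did not use, reached 1000 CPM in 9 cells (0, 6, 1 and 2 in plates 1 to 4) and in 110 of the 205 other cells. Neurod1, an endocrine differentiation factor, exceeded 100 CPM in 15 cells and in 118 of the 205 others. Rfx6, a factor of the same program, did so in 10 cells and in 68 of the 205 others. Tph1, the rate-limiting enzyme of serotonin synthesis, exceeded 100 CPM in 0 of the 85 cells, which allows a share of up to 3.53%, and in 99 of the 205 others. How much of these low levels came from RNA of other wells was not tested.

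Against all other cells of the same plate, 63 ribosomal protein genes made up most of the genes higher in the marker-high hormone-poor cells, and Ang4, Clps, Ccl9, Phgr1 and Lgals4 were higher as well. Lower genes included 8 granule genes, Tph1 and Tac1 among them, and 3 endocrine transcription factor genes. Counts were summed per plate and class, the 19 genes were left out, and CPM from here on is per 1000000 of the remaining counts. Of 15036 genes tested with edgeR's quasi-likelihood test and the plate as a block, 144 passed a Benjamini-Hochberg adjusted p of 0.05 (0.958%), with 84 higher (0.559%) and 60 lower (0.399%). An unadjusted p under 0.05 was found for 2669 genes (17.8%). List counts of this kind in the comparison with all other cells are to be read against that share. Over all genes tested, the log2 fold change had a median of -0.47 with TMM scaling and -0.98 without it, and fold changes are to be read relative to that median. Without TMM, 57 genes passed, and 3 of them, or 5.26%, were higher, against 58.3% with TMM.

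The number of calls depended on which plate was left out. Without plate 1, plate 2 or plate 4, 7, 5 and 7 genes passed, none of them higher, with smallest adjusted p of 0.029, 0.026 and 0.027 by the same test. Without plate 3, 126 passed, 99 of them higher. All 144 genes kept their direction in each of these 4 fits. The cells were split by goblet, Paneth and endocrine genes, so genes that accompany those 19 had to differ, and the p-values are no independent evidence of the cells' identity.

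Among the higher genes were 3 of the goblet and Paneth lists. Ang4, an antimicrobial ribonuclease of the angiogenin family, had 1233, 291, 3086 and 1150 CPM in plates 1 to 4 and 388, 29.3, 173 and 276 CPM in the other cells. It was higher in 4 of 4 plates, although the plates overlap between classes (log2 fold change 3.31, SE 0.47, adjusted p = 0.042 by edgeR's quasi-likelihood test). Clps had 6979, 1429, 2297 and 2457 CPM, against 827, 527, 692 and 1023 CPM, and the classes did not overlap (2.38, SE 0.31, adjusted p = 0.042, edgeR). Ccl9, a chemokine, had 308, 2.02, 47.2 and 23.5 CPM, against 1.99, 0.12, 0.039 and 0.027 CPM, a log2 fold change of 8.12 (SE 1.23, adjusted p = 0.046, edgeR). Its counts came from few cells, since 8 of the 29 and 3 of the 56 cells exceeded 100 CPM.

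Of the list of other goblet genes, 2 of 25 tested were higher (Ang4 and Ccl9) and 0 lower, with 9 at an unadjusted p under 0.05, against 17.8% of all genes. The list's median log2 fold change was 1.38, against -0.47 over all genes. Of the other Paneth genes, 1 of 20 was higher (Clps) and 0 lower, with 6 at an unadjusted p under 0.05 in edgeR and a median of 0.67. Over all genes tested, 0.559% were higher and 17.8% had such an unadjusted p. Reg4 showed no difference by this test (0.04, SE 1.07, adjusted p = 0.99, edgeR), at 3408, 710, 2379 and 2694 CPM against 1260, 6433, 548 and 13358 CPM, so it was lower in plates 2 and 4. The 16 Defa genes tested had a median log2 fold change of 4.14, and 0 passed, with 0 at an unadjusted p under 0.05 in edgeR. Their summed level was 547, 123, 3636 and 41.4 CPM in plates 1 to 4 on the all-gene scale, against 3.50, 27.4, 28.8 and 713 CPM. In plate 3 only 1 of the marker-high hormone-poor cells exceeded 100 CPM in this sum, at 32549 CPM.

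Epithelial genes shared with other lineages were also higher. Lgals4, the gut lectin galectin-4, had 1049, 1603, 3373 and 1484 CPM against 289, 649, 811 and 620 CPM, with no overlap between the classes (2.13, SE 0.19, adjusted p = 0.024, edgeR). Phgr1, a small epithelial protein listed here with enterocyte genes, had 467, 746, 1207 and 312 CPM against 56.8, 205, 261 and 101 CPM (2.69, SE 0.28, adjusted p = 0.035, edgeR). It was the only one of 14 enterocyte genes tested to pass, and the list's median was -0.22. The cytosolic glutathione transferases Gstm1 and Gstm3, related copies that may share reads, had log2 fold changes of 2.35 and 2.28. Aldh1b1, a mitochondrial aldehyde dehydrogenase, had 1465, 502, 647 and 487 CPM against 202, 166, 306 and 202 CPM, a log2 fold change of 2.21. Tmsb4x, which encodes an actin-binding peptide, had a log2 fold change of 2.13 (SE 0.25, adjusted p = 0.042, edgeR).

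Translation genes made up most of the 84 higher genes. The elongation factor subunit Eef1b2 had 4043, 8860, 6833 and 7228 CPM against 1127, 2557, 4135 and 1739 CPM, a log2 fold change of 2.12. Rpl39, a large-subunit ribosomal protein gene with many processed copies, had 2186, 2695, 3673 and 3526 CPM against 548, 775, 2161 and 959 CPM, a log2 fold change of 2.13. Of 85 ribosomal protein genes tested, a list taken by symbol after the values had been seen, 63 were higher and 0 lower, with a median of 1.61. The predicted gene Gm10275 completes the 12 largest higher changes, at 2.11. Without TMM only 3 genes of any kind were called higher, so most of these ribosomal calls depend on the scaling, while their direction held for every gene called.

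**Figure D4:**
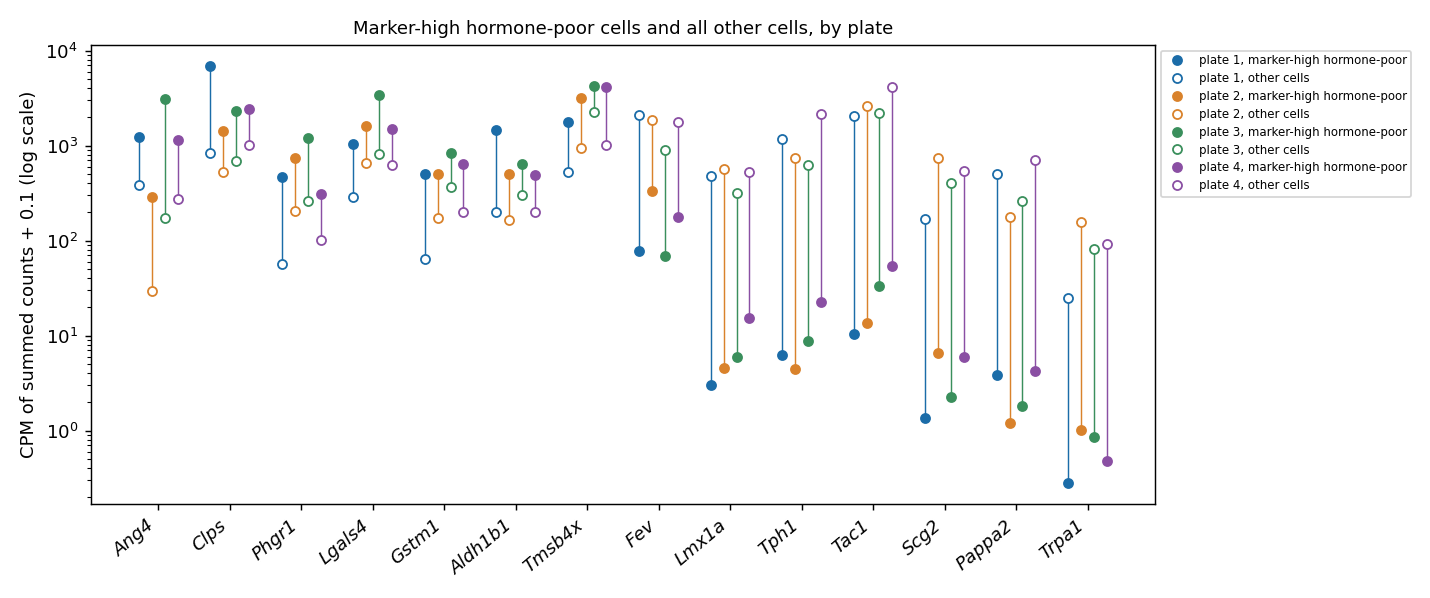
CPM of counts summed per plate plus 0.1, on a log scale, for 14 genes outside the rule. Filled circles are the marker-high hormone-poor cells and open circles all other cells of the same plate, joined by a line. Filled circles lie above open ones in all 4 plates from Ang4 to Tmsb4x and below them from Fev to Trpa1.

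Of 20 endocrine transcription factor genes, 3 were lower and 0 higher. Lmx1a, a factor of serotonin cells, had 2.89, 4.50, 5.86 and 15.1 CPM against 481, 562, 316 and 530 CPM (-5.78, SE 0.53, adjusted p = 0.025, edgeR). Fev, another factor of serotonin cells, had 78.2, 336, 69.4 and 177 CPM against 2099, 1855, 899 and 1788 CPM (-3.05, SE 0.43, adjusted p = 0.042, edgeR). Both sets of values were separate in every plate. Peg3, an imprinted zinc-finger gene, passed as well, with a log2 fold change of -6.13, but plate 1 held 0.087 CPM or less of it in both classes. Of the 20 genes, 12 were lower in all 4 plates and 1 was higher, against 24.3% and 7.75% of all genes tested.

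Granule, serotonin and neuropeptide genes were lower as well. Tph1 had 6.14, 4.32, 8.69 and 22.2 CPM against 1161, 743, 624 and 2146 CPM (-6.42, SE 0.37, adjusted p = 0.0041, edgeR). Tac1, the precursor of substance P, had 10.2, 13.6, 32.8 and 53.4 CPM against 2030, 2636, 2195 and 4148 CPM (-6.38, SE 0.41, adjusted p = 0.0060, edgeR). Scg2, a granin, had 1.26 to 6.52 CPM against 168, 744, 405 and 537 CPM (-6.47, SE 0.38, adjusted p = 0.0041, edgeR). Tph1, Tac1 and Scg2 passed the threshold in each of the 15 alternative settings, as did Pappa2. Pappa2, a protease of insulin-like growth factor binding proteins, had at most 4.11 CPM in any plate, against 502, 175, 262 and 702 CPM (-6.75, SE 0.32).

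Of 23 granule genes, 8 were lower and 0 higher, and the list's median was -2.79. The prohormone processing enzymes Cpe and Pam had log2 fold changes of -2.05 and -4.36. Ddc, which completes serotonin synthesis, fell by 1.32 on the log2 scale, and the neuropeptide gene Ucn3 fell by 5.46. Scg3 also passed, at -5.05, with 0 counts in both classes of plate 1. The rule excluded cells by 9 genes of the same endocrine program, so these lower levels are no evidence independent of it.

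The remaining lower genes named by size were of mixed function. They were Ifit1bl1 (log2 fold change -8.35, at most 3 counts in any plate of the marker-high hormone-poor cells), Ceacam20 (-7.32), 4930539E08Rik (-7.17), Cplx1 (-7.15), Il17re (-7.11), Msx1 (-7.03), Slc38a11 (-6.91), Ramp3 (-6.80), Trpa1 (-6.74), 1700016C15Rik (-6.69) and Afp (-6.67). Cplx1 encodes complexin, a regulator of vesicle fusion, and Trpa1 an irritant-sensing channel of serotonin cells. Afp, alpha-fetoprotein, showed unequal plates, with 34.8, 2599, 53.2 and 2591 CPM in the other cells and 0.27, 9.09, 0.57 and 22.2 CPM in the marker-high hormone-poor cells. Its adjusted p was 0.0041 by edgeR's quasi-likelihood test. Vim, an intermediate filament gene listed with other tissue cells, had 1.62, 12.4, 11.3 and 15.1 CPM against 524, 928, 1041 and 1690 CPM (-6.40, SE 0.48, adjusted p = 0.0098, edgeR).

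Tuft cell markers were near 0. Summed over the 11 listed tuft genes in the table, the marker-high hormone-poor cells had 0.086, 2.77, 0.45 and 0.90 CPM in plates 1 to 4, against 25.4, 35.8, 30.5 and 29.1 CPM. Of 4 tuft genes tested, 0 passed and 4 had an unadjusted p under 0.05 in edgeR, against 17.8% of all genes. Plcg2, a phospholipase of tuft cells, had at most 4 counts in any plate of these cells, and Matk had 0. Alox5ap and Avil had at most 1 count.

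No listed crypt or cell cycle gene passed the test. Of 13 stem and crypt base genes tested 0 passed in edgeR, with 1 at an unadjusted p under 0.05, below the 17.8% of all genes. Prom1 had 517, 222, 307 and 164 CPM against 345, 138, 358 and 147 CPM. The fold changes of Slc12a2, Cdk6 and Smoc2 were 1.05, 0.05 and -0.06 and changed sign with the setting. Olfm4, an intestinal stem cell marker, exceeded 100 CPM in 0 of the 85 cells (a share of up to 3.53%) and in 2 of the 205 other cells. Lgr5 of the same list exceeded 100 CPM in 4, 3, 4 and 0 marker-high hormone-poor cells of plates 1 to 4. Its summed level on the all-gene scale was 36.0, 25.7, 52.9 and 0.18 CPM against 29.4, 13.3, 17.0 and 24.4 CPM. Of 17 S and G2/M phase genes 0 passed in edgeR, with 2 at an unadjusted p under 0.05, also below that share. The list's median log2 fold change was nevertheless 2.27, against -0.47 over all genes, so equal levels were not shown. Its summed level on the all-gene scale was 350, 760, 496 and 203 CPM in plates 1 to 4. The other cells had 143, 97.1, 564 and 166 CPM, so plate 3 was lower. Ube2c, a mitotic ubiquitin conjugating enzyme, had 97.3, 242, 182 and 85.1 CPM against 0.95, 14.8, 194 and 11.5 CPM, so plate 3 ran the other way. Hells, Birc5 and Mcm6 had log2 fold changes of -1.43, 2.27 and -0.20. Mki67, a proliferation marker, exceeded 100 CPM in 2 of the 85 cells and in 4 of the 205 other cells.

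Secretory fate and protein folding genes stayed short of the threshold. Of 19 Notch and secretory fate genes tested 0 passed in edgeR, and 4 had an unadjusted p under 0.05, near the 17.8% of all genes. Bhlha15, a factor of secretory cell architecture, had 121, 64.8, 93.7 and 58.6 CPM against 7.44, 12.6, 15.9 and 15.0 CPM (3.22, SE 0.53, adjusted p = 0.059, edgeR), with no overlap between the classes. Hes6, a Hes-family factor, had 504, 463, 693 and 721 CPM against 224, 379, 408 and 303 CPM (1.38, SE 0.25, adjusted p = 0.073, edgeR). Sox4 and Rbpj, the latter the DNA-binding effector of Notch, had log2 fold changes of 1.36 and 0.83. Atoh1, the secretory fate factor, was sparse, at 10.3, 0.83, 0 and 0.37 CPM against 0, 1.12, 0.039 and 0 CPM. Of 28 genes of protein folding in the endoplasmic reticulum 0 passed in edgeR, with 5 at an unadjusted p under 0.05, again near 17.8%, and a median of 0.02. The chaperones Calr and Hspa5 had log2 fold changes of 0.62 and -0.10, and the translocation genes Sec61b and Ssr4 0.63 and 1.16.

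The 11 hormone-poor cells below the secretory limit allowed a second comparison, in which both classes met the same endocrine criteria. It could be fitted in plates 1 and 3 only, with 36 against 3 cells and 17 against 7 cells, so it has 1 residual degree of freedom per gene and a spread taken mostly from all genes together. The comparison uses the same marker-high hormone-poor cells as the one above. Its classes were split by the secretory sum, so genes that accompany the secretory genes of the rule had to differ. The p-values of this second comparison are therefore no independent evidence of the cells' identity either. Guca2b, Reg4, Lgals4 and Mptx1 were higher in the marker-high cells and Igfbp2 was lower. Of 10333 genes tested by edgeR's quasi-likelihood test, 5 passed (0.0484%), with 4 higher (0.0387%) and 1 lower (0.00968%), and 298 had an unadjusted p under 0.05 (2.88%). Over all genes tested, the log2 fold change had a median of 0.95.

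Guca2b, the uroguanylin gene, had 1560 and 426 CPM in plates 1 and 3, against 7.79 and 0.46 CPM in the marker-low cells (8.80, SE 1.17, adjusted p = 3.7e-10, edgeR). Reg4 had 3408 and 2379 CPM against 26.7 and 13.4 CPM (7.40, SE 0.91, adjusted p = 6.4e-12, edgeR). It thus passed here, and in the comparison with all other cells it did not. The difference between the comparisons was not tested. Lgals4 had 1049 and 3373 CPM against 6.67 and 1121 CPM, a log2 fold change of 4.43 (adjusted p = 0.014, edgeR). Mptx1, a mucosal pentraxin of Paneth cells, had 0 counts in both classes of plate 1, and 1226 against 1.38 CPM in plate 3. Igfbp2, an insulin-like growth factor binding protein, had 8.22 and 31.7 CPM against 2973 and 1296 CPM (-6.75, SE 0.98, adjusted p = 1.6e-08, edgeR). Apart from Mptx1, each of these genes moved the same way in both plates.

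The next genes by p did not pass. Klk1 had 1585 and 459 CPM against 460 and 5.99 CPM (4.16, SE 1.01, adjusted p = 0.059, edgeR). Clps had 6979 and 2297 CPM against 2839 and 148 CPM. Acta1 and Ttr had log2 fold changes of 6.32 and 7.10, with at most 6 and 9 counts in a marker-low plate. Ccl9 had 308 and 47.2 CPM against 3 counts in the marker-low cells of plate 1 and 0 in those of plate 3. Lower values were seen for Tuba1a (-3.47), Map1b (-4.34), Cd177 (-5.17) and Scgn (-4.06), the last a calcium sensor of endocrine cells. Olfm2 had at most 2 counts in a marker-high plate and 252 counts in a marker-low one.

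In this second comparison 0.0387% of all genes tested were higher and 2.88% had an unadjusted p under 0.05 in edgeR, with a median of 0.95. The counts and medians of the lists are to be read against these values. By list, 3 of 18 genes listed here as other Paneth genes were higher (Guca2b, Reg4 and Mptx1), with a median of 3.33. Against all other cells, Reg4 was lower in plates 2 and 4, and Mptx1 had 0 counts in plate 1. These calls are therefore no measure of Paneth identity. Of 23 other goblet genes 0 were higher, with a median of 3.38 and 7 at an unadjusted p under 0.05 in edgeR, against 2.88% of all genes. Of 9 Defa genes tested, which were left out of the 5 calls, 1 was higher (Defa30, 254 and 1968 CPM in plates 1 and 3, adjusted p = 7.0e-07, edgeR). Among the marker-high cells, 5 in plate 1 and 1 in plate 3 exceeded 100 CPM of Defa30, the latter at 16839 CPM on the all-gene scale. The level of plate 3 thus rested on 1 cell. The median of the 9 was 7.64, 6 had an unadjusted p under 0.05, and near-identical copies can share reads. Endocrine transcription factors (17 tested) and granule genes (19 tested) had 0 calls in edgeR. Their medians were -1.97 and -0.83, against 0.95 over all genes. An unadjusted p under 0.05 in edgeR was found for 2 and 4 of them, against 2.88% of all genes. Ribosomal protein genes had 0 calls of 85, with 0 at an unadjusted p under 0.05 in edgeR and a median of 0.53. With every cell weighted alike in limma, 0 genes were higher and 1 lower, and without the plate block 0 passed, with 757 at an unadjusted p under 0.05 in edgeR.

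**Figure D5:**
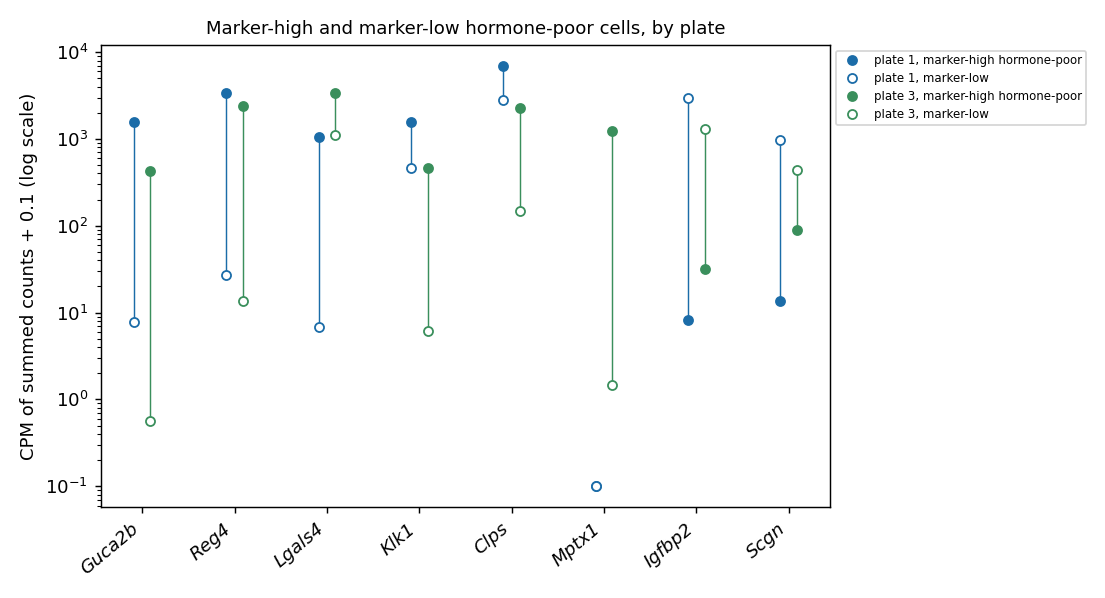
CPM of counts summed per plate plus 0.1, on a log scale, in plates 1 and 3. Filled circles are the marker-high and open circles the marker-low hormone-poor cells. Guca2b, Reg4 and Lgals4 are higher and Igfbp2 lower in the marker-high cells of both plates, and Mptx1 has 0 counts in both classes of plate 1.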

How the data were processed

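The data used were counts, whole numbers for each gene in each of 290 wells (368 cells were sorted), as the authors deposited them in 1 table. The submitters' processing notes name bcl2fastq 2.17.1.14, cutadapt 1.10, Bowtie2 2.2.8, STAR 2.5.3a, UMI-tools 0.4.4, HTSeq 0.6.1 and the build mm10, without their roles, and the filter on cells is not given in the sources used here. Since values reached 643177, they may include PCR copies. Plates were matched to samples by the experiment number in the column names and the pool number in the titles. Of 29161 genes, 29120 had a symbol in GENCODE M21.

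Per-plate sums of each class (at least 3 cells) were tested with edgeR 4.0.16 (R 4.3.3) by the quasi-likelihood test, with the plate as a block, TMM, filterByExpr and p-values adjusted by Benjamini-Hochberg over all genes tested. The plate is the source of both classes, so the block follows from the design. The 19 genes of the rule were removed first, and Defa genes were left out of counts of calls because copies share reads. The standard error is the log2 fold change divided by the square root of F. The calculation was tested on simulated data. Alternatives used DESeq2 1.42.0, limma 3.58.1, other scaling, filters, limits and plates.

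Named genes are those of the rule, up to 12 per direction with the largest change past the threshold and the same direction in every plate fitted (or up to 5 by p where fewer than 5 passed), and list genes past the threshold or, where none passed, the 4 with the most counts. Genes named beyond this rule, and the ribosomal list, were chosen after their values had been seen. The cells, lists and tests were chosen with earlier results of these data known. Figures were drawn with matplotlib 3.10.9.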

Additional observations from a re-analysis of the deposited data

How the results depend on the processing

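Against all other cells, 144 genes passed. The count was 2396 with DESeq2, 791 with limma weighting every cell alike, 57 without TMM, 13 with a secretory limit of 5000 CPM and 14 with Tff3 left out of the sum, a setting chosen after seeing the data. It lay between 5 and 126 with 1 plate left out. Without the replicate block it was 187, with 40 higher and 147 lower. Of these calls, 743 were higher with DESeq2, 198 with limma, 3 without TMM, 1 at 5000 CPM and 2 without Tff3, against 84 of the 144. All 144 genes kept their direction in each of these settings.

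Against the marker-low hormone-poor cells, 5 genes passed. The count was 82 with DESeq2, 11 without TMM, 1 with limma, 3 with at least 1 cell per class (3 plates) and 8 at 5000 CPM. It was 0 with Tff3 left out (484 at an unadjusted p under 0.05 in edgeR) and 0 without the replicate block (757). No value could be had with a limit of 1000 CPM, at least 5 cells or 1 plate left out, since fewer than 2 plates remained.

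The share of plate 3 was 37.5% with no Neurog3 criterion, and that of plate 2 was 15.7% with Tff3 left out. The other 22 shares recomputed lay within the interval of the share they stand beside.

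Among genes that did not pass, signs changed in these settings (log2 fold change). At 5000 CPM, Slc12a2 stood at -1.47, Birc5 at -1.02 and Hspa5 at 0.095. Cdk6 stood at -0.47 without TMM, -0.12 with no filter and -0.16 with limma. With Tff3 left out, Smoc2 stood at 0.13 and Mcm6 at 0.23. Mcm6 stood at 0.92 at 1000 CPM and 0.45 without the block. Without duodenum replicate 1, Slc12a2 stood at -0.17, Cdk6 at -0.49, Smoc2 at 0.16 and Birc5 at -0.11. Without duodenum replicate 2, Cdk6 stood at -0.33 and Birc5 at -0.033. Without jejunum replicate 1, Smoc2 stood at 0.14 and Mcm6 at 0.79. With each plate left out in turn, the ranges were -0.17 to 2.19 for Slc12a2, -0.49 to 0.59 for Cdk6, -0.47 to 0.16 for Smoc2, -0.11 to 4.61 for Birc5 and -1.14 to 0.79 for Mcm6. The cause of these changes was not tested. With 4 plates, and 3 to 36 cells per class and plate, genes carried by 1 or 2 cells have wide errors.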
